A study of Mus musculus with 4 samples.

Results

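In mouse embryonic stem cells, peaks of tagged Zfp574 lay within 500 bp of both start sites at 16 pairs of protein-coding genes. The genes of each pair are neighbours transcribed away from each other, and 4 of the pairs are described here. These 4 pairs were Atp6v1d and Eif2s1, Copa and Ncstn, Hdlbp and Sept2, and BC055324 and Mettl18. They were chosen by the positions of the listed peaks themselves, through 1 genomic window per pair, so that binding at the members is a description and was not tested. The windows held 8 of the 140 peaks in the list called on both replicates together (the merged list), 7 of the 80 peaks of replicate 1 and 6 of the 96 peaks of replicate 2. The 8 genes are 8 of 21853 annotated protein-coding genes.

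The measurement was Cut&Run, in which an antibody guides a nuclease to chromatin and the DNA released around the bound protein is sequenced. Both AID-Zfp574 samples came from embryonic stem cells in which V5 and an auxin-inducible degron had been knocked in at the N terminus of endogenous Zfp574, in the OsTir1 parental line. Both parental samples carried the same OsTir1 transgene, driven by EF1a with mCherry, but no tag on Zfp574, and served as background for the same anti-V5 antibody. Each biological replicate used 1000000 cells. The methods describe selection and genotyping of individual clones, and replicates of an edited clone share whatever is particular to that clone. Peak names in the AID-Zfp574 lists mark these samples as without IAA, the auxin that triggers the degron.

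Zfp574 is a protein with an array of C2H2 zinc fingers, a fold in which successive fingers read successive stretches of DNA. A promoter shared by genes transcribed in opposite directions places a pair of transcription start sites (TSSs) close together, often within a CpG-rich stretch, and is common among genes that most cells use. A factor bound there lies upstream of, within or just downstream of both starts at once, so peak position alone does not assign it to either gene. The members belong to different pathways. Atp6v1d encodes a subunit of the vacuolar proton pump that acidifies lysosomes, and Eif2s1 the alpha subunit of eIF2, whose phosphorylation holds back translation under stress. Copa encodes a coatomer subunit of the vesicles that return cargo to the endoplasmic reticulum, and Ncstn nicastrin, a subunit of gamma-secretase. Hdlbp encodes vigilin, an RNA-binding protein with many KH domains, and Sept2 a GTP-binding septin of the cytoskeleton. BC055324 is the mouse counterpart of FIRRM, a factor of recombination repair, and Mettl18 encodes a histidine methyltransferase that modifies a ribosomal protein.

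The sequences below show short words that recur at the bound promoters, none of them at all 4 pairs. Each comes from the mm10 reference and is given 5′ to 3′. Capitals mark ATAGAG and CCATAG, which overlap as CCATAGAG, and CTAGAG, read on either strand. The first is the 30 bases around the word closest to the summit of the strongest member peak, the next is the whole stretch between the BC055324 and Mettl18 start sites, then the whole merged Hdlbp peak, and last the 30 bases around the single word found near the leading Copa and Ncstn summit.
Atp6v1d and Eif2s1, chr12:78861974-78862003, minus strand: ttgccactaaCCATAGAGtcttggtcctcc
BC055324 and Mettl18, chr1:163994797-163994888, plus strand: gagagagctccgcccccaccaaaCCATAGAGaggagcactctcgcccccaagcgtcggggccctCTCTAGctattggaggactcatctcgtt
Hdlbp, chr1:93478382-93478538, plus strand: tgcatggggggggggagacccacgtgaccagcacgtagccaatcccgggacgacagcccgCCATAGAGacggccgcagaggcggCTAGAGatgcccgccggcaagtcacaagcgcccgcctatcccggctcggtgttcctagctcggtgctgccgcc
Copa and Ncstn, chr1:172082725-172082754, minus strand: gctagcggaagcCTAGAGaggccgctacga

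Every listed peak has a fold enrichment, which divides the tagged reads over its summit plus 1 by the background reads plus 1, and its −log10 p and −log10 q as the authors' peak caller gave them. Reads at each summit were solved from these values, and 100% of them were whole to within 0.05 reads in each list. Over all 140 merged peaks the fold enrichment ran from 4.41 to 13.5 with a median of 7.61, and the summits held 8 to 20 reads. The 8 member peaks had a median fold enrichment of 7.69 and a median of 12.5 reads. Intervals given for reads are exact 95% Poisson intervals and cover counting error only. The lowest −log10 q listed was 1.42 in the merged list, 1.38 in replicate 1 and 1.33 in replicate 2, so a site below those values is not listed.

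Atp6v1d and Eif2s1 shared the strongest member peak. In the merged list it spanned 350 bp (chr12:78861771-78862120) with a fold enrichment of 13.5, a −log10 q of 15.9 and 20 reads (interval 12.2 to 30.9) over a background of 0.552. It ranked 1 of 140, a place it shared with a peak elsewhere. In the replicate lists the same stretch was split into a pair of peaks. Replicate 1 listed a peak with its summit at 78861835, a fold enrichment of 10.2 and 12 reads, and another with its summit at 78861967, a fold enrichment of 10.99 and 13 reads. Their edges were 56 bp apart and their summits 132 bp apart. Replicate 2 listed summits at 78861798 (fold enrichment 9.29, 11 reads) and 78861949 (fold enrichment 10.1, 12 reads), 151 bp apart with a gap of 73 bp. The downstream summit was the higher one in both replicates, but by a single read in each, which lies well inside the counting intervals.

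At the leading peak of this pair the mean fold enrichment of the replicates was 10.6 ± 0.596 (SD, n = 2), and their summits lay 18 bp apart. The merged summit coincided with that of replicate 1. Its 20 reads were 0.8 of the 25 reads obtained by adding both replicate summits. Thus both replicate lists had a pair of peaks where the merged list had 1.

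Against the gene models (GENCODE M21), the Atp6v1d TSS lies at 78861638 on the minus strand and the Eif2s1 TSS at 78861819 on the plus strand, with 180 bp between them. The merged summit was at -329 bp from Atp6v1d, where negative means upstream, and at +148 bp from Eif2s1. It therefore fell outside Atp6v1d and within the 5′ UTR of Eif2s1, not between the starts. Only the upstream summit of replicate 2 lay between both starts. The Eif2s1 position depends on the gene model. From the RefSeq start at 78862072 the summit was at -105 bp, and from the nearest start of any GENCODE transcript, at 78862085, it was at -118 bp, both upstream. With the RefSeq start, 433 bp lie between the genes and the summit falls between them.

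**Figure D1:**
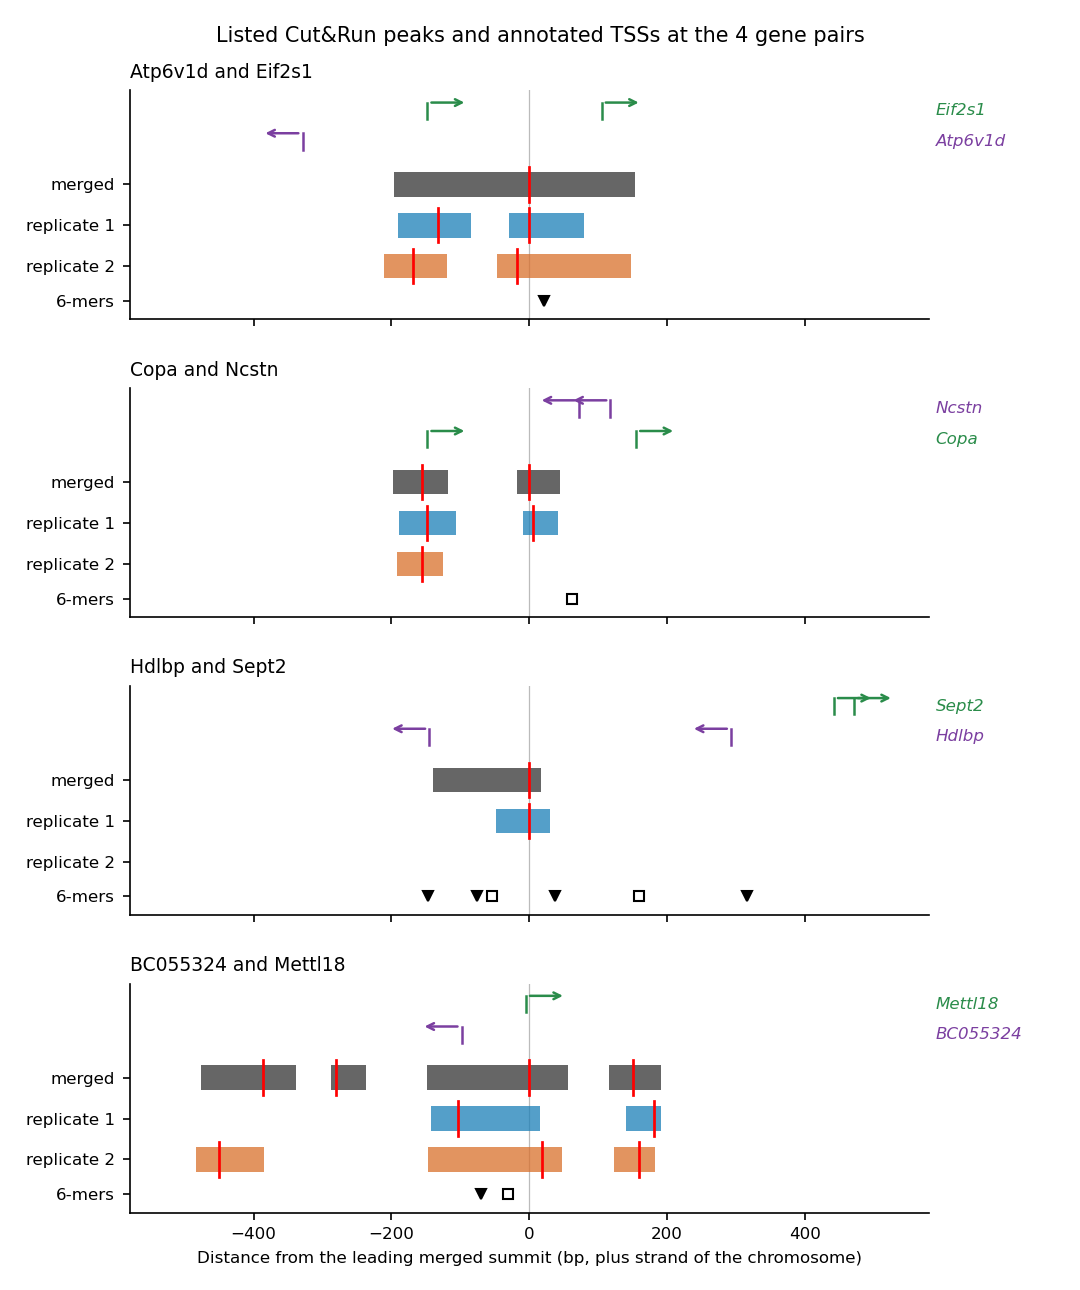
Listed peaks (bars) with summits (red ticks) at the 4 gene pairs in the merged list, replicate 1 and replicate 2, against distance in bp from the leading merged summit (0). Bent arrows mark GENCODE and RefSeq TSSs with their direction, filled triangles ATAGAG or CCATAG and open squares CTAGAG. The merged Atp6v1d and Eif2s1 peak covers a pair of peaks in each replicate, replicate 2 has no bar at Hdlbp and Sept2, and BC055324 and Mettl18 have 4 merged peaks.

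At BC055324 and Mettl18 the signal was split most. The merged list held 4 peaks over the window, with gaps of 51, 89 and 59 bp. Of the 26 groups of merged peaks separated by at most 300 bp, this was the only one of 4 peaks. In all, 58 of the 140 merged peaks (41.4%) lay in such groups. Among the member peaks it was 6 of 8, a count that follows from the choice of windows.

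The leading peak of this set (chr1:163994746-163994950, 205 bp) had a fold enrichment of 9.66, a −log10 q of 9.51, 14 reads (interval 7.65 to 23.5) and rank 17. Replicate 1 listed it with a fold enrichment of 7.85 and 9 reads, and replicate 2 with 8.59 and 10 reads. The mean of the replicates was 8.22 ± 0.520 (SD, n = 2). Although the peak spans were nearly the same, the summits were not. Replicate 1 had its summit at 163994790 and replicate 2 at 163994912, 122 bp apart, on either side of the stretch between both starts. The merged summit at 163994894 was near that of replicate 2.

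BC055324 starts at 163994796 on the minus strand and Mettl18 at 163994889 on the plus strand, in GENCODE and RefSeq alike, with 92 bp between them. The merged summit was at -98 bp from BC055324 and at +5 bp from Mettl18, in the Mettl18 UTR. The replicate 1 summit lay instead in the UTR of BC055324. The peak itself covered both starts and everything between them in all 3 lists, so at this pair a single peak spans the shared promoter while the summit moves from one gene's edge to the other's between replicates.

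The other merged peaks flanked it. A peak within the Mettl18 5′ end (chr1:163995010-163995084, fold enrichment 8.38, 12 reads) was listed in replicate 1 with a fold enrichment of 7.01 and in replicate 2 with 7.81. On the BC055324 side, a peak in an intron (chr1:163994417-163994555, fold enrichment 6.99, 10 reads) was listed in replicate 2 alone, with a fold enrichment of 7.03. The last, of 50 bp, had its summit in a BC055324 coding exon (chr1:163994607-163994656, fold enrichment 7.73, 11 reads) and was listed in neither replicate.

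**Figure D2:**
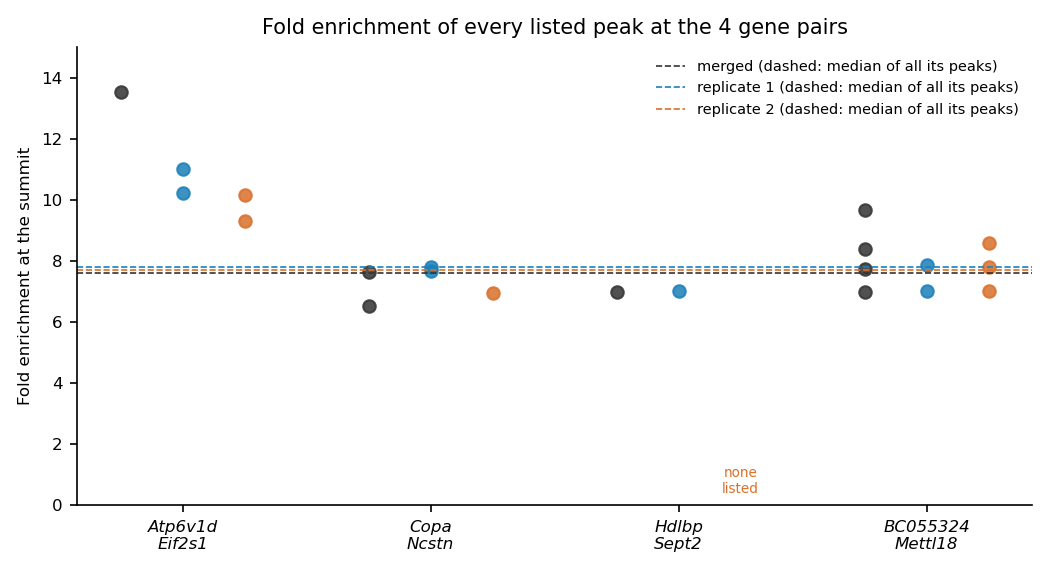
Fold enrichment at the summit (vertical axis, starting at 0) of every listed peak at the 4 gene pairs, with 1 point per peak and dashed lines at the median of all peaks of the same list. Atp6v1d and Eif2s1 lie above the 3 medians in every list, and the other pairs lie around them.

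Copa and Ncstn had a pair of merged peaks 100 bp apart, with summits 156 bp apart. The upstream one on the chromosome (chr1:172082479-172082558, 80 bp) had a fold enrichment of 6.52 with 13 reads over a background of 1.15, and ranked 91. It was listed in replicate 1 with a fold enrichment of 7.65 and 11 reads, and in replicate 2 with 6.95 and 10 reads. The other (chr1:172082659-172082721, 63 bp) had a fold enrichment of 7.65, also with 13 reads but over a background of 0.831, and ranked 69. Replicate 1 listed it with a fold enrichment of 7.79 and 10 reads, and replicate 2 did not list it. The same 13 reads thus gave different fold enrichments because the background differed, and the peak with the higher value was the one with support in 1 replicate. Backgrounds at this pair were above the lowest in the merged list, 0.552.

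The gene models overlap here. Ncstn starts at 172082795 on the minus strand. A protein-coding Copa transcript starts at 172082529 on the plus strand, inside Ncstn, a start also in RefSeq. Another Copa transcript starts at 172082832, which leaves 36 bp between facing starts. The lower merged summit, at 172082521, lay in an intron of Ncstn and just upstream of the Copa start at 172082529. The leading summit, at 172082677, lay in coding sequence of Ncstn and in the UTR of Copa, at +118 bp from Ncstn and +148 bp from Copa. From a further Copa transcript start, at 172082643, it was at +34 bp, and from the facing Copa start at -155 bp, so the side of Copa on which it lies depends on the transcript. From the RefSeq start of Ncstn, at 172082749, it was at +72 bp. Neither merged peak covered the 36 bp between the facing starts.

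Hdlbp and Sept2 had the weakest leading peak among the members. In the merged list it spanned 157 bp (chr1:93478382-93478538) with a fold enrichment of 6.99, 10 reads (interval 4.80 to 18.4) and rank 84. Replicate 1 listed it with a fold enrichment of 7.01 and 8 reads (interval 3.45 to 15.8), with the summit at 93478522 as in the merged list. Replicate 2 listed no peak in the window. The lowest summit listed in replicate 2 held 6 reads, close to the 8 of replicate 1, so its absence from the list does not show that the site was unbound there.

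This peak did not lie between the facing starts. The Hdlbp start that its protein-coding transcripts use most lies at 93478815, and the Sept2 start facing it at 93478964 on the plus strand, with 148 bp between them. The summit was at +293 bp from that Hdlbp start and at -442 bp from Sept2, in an intron of 2 Hdlbp transcripts. A shorter Hdlbp transcript starts at 93478377, also in RefSeq, and from it the summit was at -145 bp. The nearest start of a protein-coding transcript was therefore that inner Hdlbp start (a further Hdlbp transcript starts at 93478380, at -142 bp), and the description as a promoter shared with Sept2 holds only in the sense that the summit lies within 500 bp of the Sept2 start. The Sept2 start that its protein-coding transcripts use most lies at 93478993, which puts the summit at -471 bp. RefSeq, which names the gene Septin2, has the same start.

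**Figure D3:**
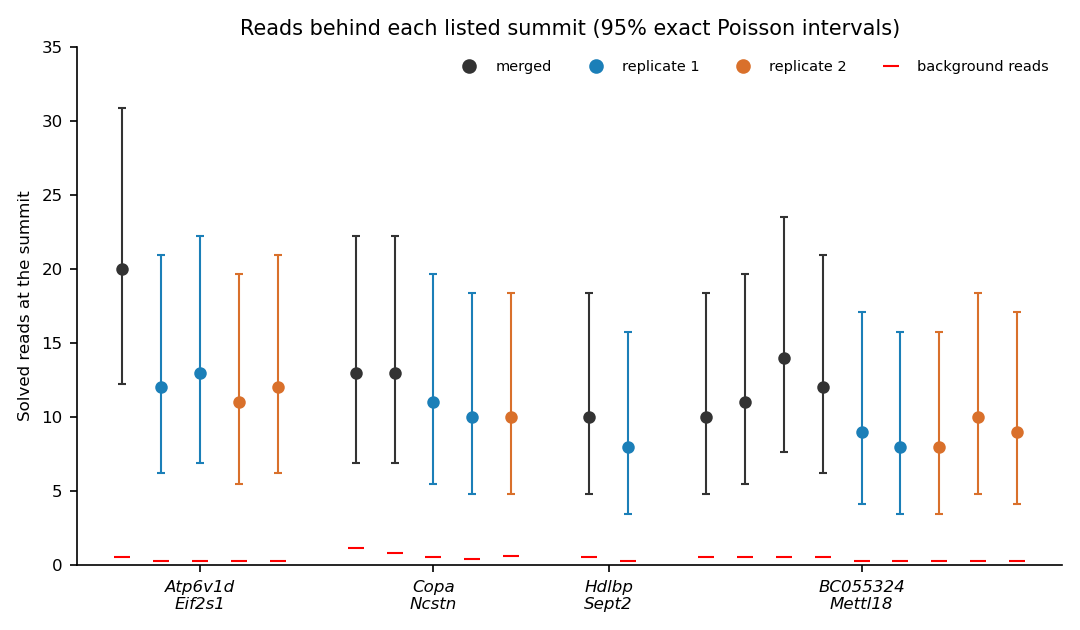
Reads solved at each listed summit of the 4 gene pairs (vertical axis, reads), with exact 95% Poisson intervals as bars and the local background as red dashes. The intervals of the peaks within a pair overlap, and all lie above their backgrounds of 0.274 to 1.15 reads.

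Replicate support differed between the members. Of the 8 merged member peaks, 4 overlapped a peak in both replicates. Only replicate 1 listed 2 of the rest, only replicate 2 listed 1, and 1 had no counterpart. Over all merged peaks, 54 of 140 (38.6%) overlapped a peak in both lists, so the members' count of 4 in 8 is near the background. By pair, 3 of the 4 had at least 1 merged peak in both replicates, with Hdlbp and Sept2 as the exception. This counts any peak of a pair, so the share of single merged peaks is not a like measure for it. For the leading merged peak alone, the count by pair was 2 of 4, since the leading Copa and Ncstn peak was in replicate 1 alone. When the replicate summits had also to lie within 100 bp of the leading merged summit, Atp6v1d and Eif2s1 alone remained.

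The members were then set beside all other coding genes with facing starts. GENCODE M21 holds 1092 pairs of protein-coding genes on opposite strands whose starts face away from each other at most 1000 bp apart. They include 2152 of 21853 protein-coding genes (9.85%). Of the 132 merged peaks within 500 bp of a protein-coding TSS, 22 (16.7%) had such a gene as the nearest. Joining neighbouring peaks gave 17 of 101 regions (16.8%). Within 500 bp of both starts of a pair lay 21 merged peaks, at 16 pairs, which are the 4 members and 12 others.

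By leading fold enrichment, the members ranked 1, 3, 9 and 11 of the 16. Between the first and the next of them came Zfp142 and Bcs1l, with 10.8 and support in both replicates. Sphk2 and Rpl18 followed with 9.29, Rubcn and Fyttd1 with 9.02 and no replicate support, Ruvbl2 and Gys1 with 8.35, Dnajc7 and Nkiras2 with 7.92, Pradc1 and Cct7 with 7.73, and Cdiptos and Cdipt with 7.60. The median was 8.65 over the 4 members and 7.67 over the 12 others. Leading peaks were in both replicates at 2 of 4 members and 5 of 12 others, in 1 replicate at 2 and 4, and in none at 0 and 3. More than 1 merged peak was listed at 2 of the members and at 1 of the others, Ruvbl2 and Gys1.

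Distances between the facing GENCODE starts were alike, with a median of 120 bp (range 36 to 180) in the members and 108.5 bp in the others. RefSeq starts left 433 bp at Atp6v1d and Eif2s1, 75 bp at Hdlbp and Sept2 and 92 bp at BC055324 and Mettl18. At Copa and Ncstn RefSeq had no facing starts. The leading summit lay between the facing starts at 0 of the 4 members and at 3 of the 12 others, Zfp142 and Bcs1l, Cdiptos and Cdipt, and Cog8 and Nip7. With RefSeq starts the Atp6v1d and Eif2s1 summit lay between them, as given above. The median distance of the leading summit from the midpoint of the GENCODE starts was 187.5 bp in the members and 82 bp in the others. Among the 4 members, 2 summits lay on the side of the plus-strand gene (Eif2s1 and Mettl18) and 2 on the side of the minus-strand gene (Ncstn and Hdlbp). These are counts over few pairs, chosen in part by their peaks, and were not tested.

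**Figure D4:**
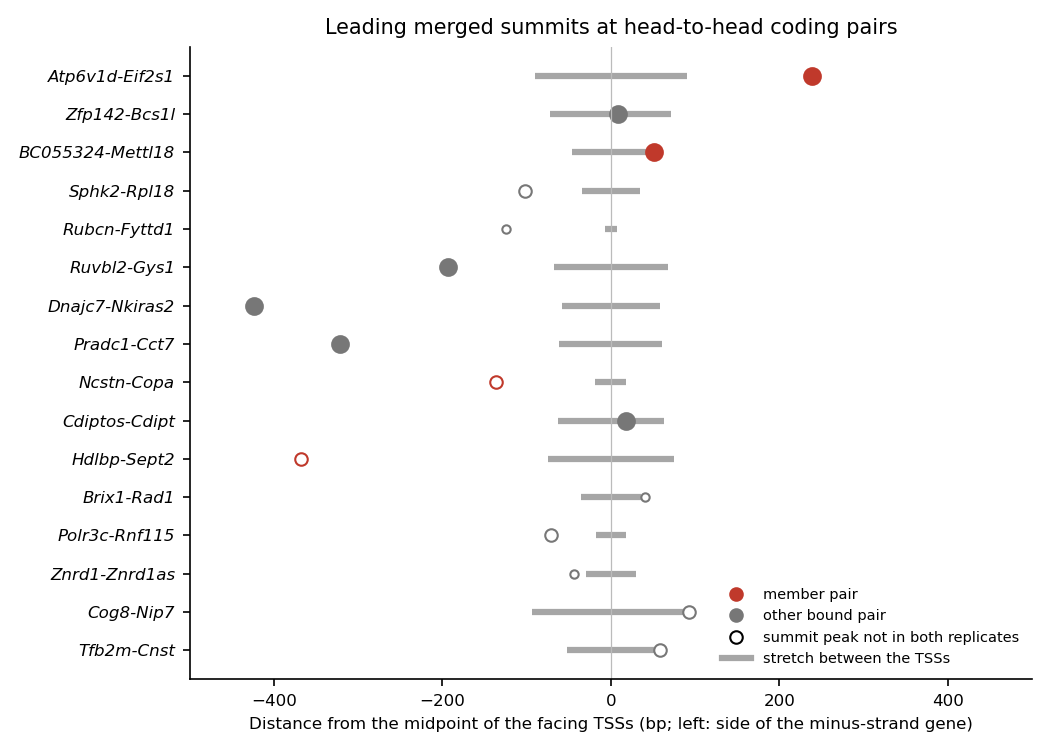
Leading merged summit (circle) at each of the 16 bound head-to-head pairs, ordered by fold enrichment from the top, as distance in bp from the midpoint of the facing starts, with the minus-strand gene to the left. Grey bars are the stretch between the starts, red marks the 4 members, and filled, open and small open circles stand for leading peaks listed in both, 1 and 0 replicates. With these GENCODE starts no red circle lies on its grey bar, against 3 of the 12 others, and RefSeq starts place the Atp6v1d and Eif2s1 summit between the genes.

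For 6 of the 8 members, partners in a complex or family were counted. No partner in these 6 lists had a merged peak near its start. Counting peaks within 500 bp of a protein-coding TSS, the merged list marked 1 of 26 genes of the V-ATPase, 1 of 9 of eIF2 and its exchange factor, 1 of 9 of coatomer, 1 of 7 of gamma-secretase, 1 of 13 septins and 1 of 28 Mettl methyltransferases. In each list that gene was the member itself. Over all protein-coding genes, 119 of 21853 (0.545%) had a merged peak that near, so lists of this size with no further gene do not differ visibly from that background. Both replicate lists gave the same counts, apart from the septins in replicate 2, which had 0 of 13.

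Sequence was compared in windows of 301 bp around the leading summits, on both strands. Promoters without a listed peak have no summit to centre on, so their windows were not placed in the same way. The words ATAGAG and CTAGAG, and with them CCATAG, the longer CGCTCTAG (which overlaps CTAGAG read on the other strand) and ACCATAGA, had been noticed earlier in these peaks and are not independent of them. ATAGAG occurred at 3 of 4 members (not at Copa and Ncstn), in 6 of the 12 other bound pairs and in 51.9% of 108 merged regions, which include the members, against 8.0% of all 21853 protein-coding promoters and 7.60% of the 1092 head-to-head promoters. CCATAG occurred at the same 3 members and in 38.9% of regions, against 8.91% of all promoters. CTAGAG occurred at 3 of 4 members (not at Atp6v1d and Eif2s1), in 9 of the 12 others and in 59.3% of regions, against 13.9% of all promoters. ACCATAGA, which overlaps both ATAGAG and CCATAG, occurred at 3 of 4 members and in 30.6% of regions, against 0.787% of all promoters. CGCTCTAG was found at 0 of 4 members, although 25.0% of regions and 0.998% of all promoters hold it.

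In the printed sequences, the Atp6v1d and Eif2s1 word is centred 21.5 bp from the merged summit on the minus strand, within the peak and on the far side of both leading replicate summits from Atp6v1d. At BC055324 and Mettl18, ATAGAG on the plus strand and CTAGAG on the minus strand both lie between the starts, centred -69.5 and -30.5 bp from the merged summit. They fall between the summits of the replicates. At Hdlbp, ATAGAG and CTAGAG lie 22 bp apart, start to start, on the plus strand within the merged intronic peak, centred -75.5 and -53.5 bp from the summit. Both lie outside the narrower replicate 1 peak (chr1:93478474-93478551). Further copies lie outside the merged peak. Among them are the ATAGAG nearest to the summit, centred 37.5 bp from it, and ACCATAGA on the minus strand at chr1:93478373-93478380, at the inner Hdlbp start. The Copa and Ncstn word, CTAGAG, is centred 62.5 bp from the leading summit and outside both merged peaks.

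Textbook promoter motifs were not held in common, apart from the GC box. GGGCGG occurred at 4 of 4 members, against 46.3% of all promoters and 64.9% of head-to-head promoters. CCAAT occurred at Hdlbp and at BC055324 and Mettl18, against 36.4% of all promoters. CCGGAAG, an ETS-type word, occurred near the Copa and Ncstn summit, TATAAA and GCATGCGC near that of Atp6v1d and Eif2s1, and GATGGCGGC at Hdlbp, each at 1 of 4. All promoters hold these at 11.5%, 10.6%, 3.28% and 1.82%, and head-to-head promoters at 27.3%, 5.04%, 5.86% and 3.21%. GC content of the member windows was 53.2% at Atp6v1d and Eif2s1, 63.8% at Copa and Ncstn, 63.1% at Hdlbp and 59.1% at BC055324 and Mettl18, against 58.5% over all promoters and 62.1% over head-to-head promoters. CpG dinucleotides were present at 0.722 to 0.847 of the number given by base composition, against 0.603 over all promoters and 0.836 over head-to-head promoters. A matching word is a description of the sequence and not a measured binding site.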

How the data were processed

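Cut&Run with an anti-V5 antibody was analysed from 2 AID-Zfp574 and 2 OsTir1 parental samples, grouped by their labels. The authors sequenced single ends of 50 bp, placed unique reads with up to 3 mismatches on mm10 with Bowtie 0.12.9, and called peaks with MACS2 2.1.2.1 per replicate and on both combined, with the parental line as background (versions per the submitters' processing notes and the study's methods). The stated paired-end input does not match single-end reads, and the narrowest listed peaks (50 bp) are below the stated extension size. Whether this affected the splitting of neighbouring peaks was not tested. Summits were taken as deposited. The deposited columns used were the fold enrichment (a ratio), the −log10 p-value and the −log10 q-value. The deposited score column was read but gave no result. Peaks of the parental line alone were not analysed here, and the lists carry no sequencing depth.

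Pileup and background were solved from fold enrichment (pseudocount 1) and the Poisson tail, which returned 99.8% of 1000 simulated peaks when tested on simulated data. Overlap meant at least 1 shared bp, and the leading peak is the merged peak of highest fold enrichment. The TSS of a gene was that of its protein-coding transcript nearest to the leading summit (GENCODE M21). Sequences came from the RefSeq GRCm38 assembly, which is the same build as mm10. Head-to-head starts were at most 1000 bp apart, neighbouring peaks were joined across at most 300 bp, and motif windows took 150 bp on each side. Named genes were the 8 members, other bound head-to-head pairs (up to 10 by fold enrichment) and bound genes of the members' complexes. Cog8 and Nip7 were named after their values were seen. The members and lists were chosen with earlier results of these data known, and no test was run on them. The alternatives were stricter peaks, other overlap rules, other TSSs, each replicate alone, other motif windows and pseudocount 0. Python 3.11.15, scipy 1.17.1, pandas 2.3.3, pysam 0.24.0 and matplotlib 3.10.9 were used.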

Additional observations from a re-analysis of the deposited data

How the results depend on the processing

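A count was taken as moved beyond 1.5 times the reported count, and a distance or read number beyond its spread between the replicates. By this measure 18 alternatives left the compared value within range and 10 moved it. The median was 10 reads in both single replicates, so any other read number counted as moved. Single-replicate distances and reads also set the spread by which they were judged, so the tally is a description. The 3 pairs with a merged peak in both replicates became 1 when summits had to lie within 100 bp, and 2 with a −log10 q of at least 5 or with at least 50% of each peak shared. The 2 pairs with more than 1 merged peak became 0 when peaks were joined across 300 bp and 1 with a −log10 q of at least 5, and were 2 to 3 in single replicates. The median distance from summit to TSS, 146.5 bp, was 118 bp with any transcript and 125 bp with RefSeq starts, and 123 to 146.5 bp in single replicates, the lower value from replicate 2, which lacks Hdlbp and Sept2 (median over 6 genes, not 8). Merged peaks at shared promoters fell from 21 to 13 with a −log10 q of at least 5 and were 15 in each single replicate. The median of 12.5 reads was 20.3 with pseudocount 0, a setting in which 0 of 8 values were whole, and 10 in each single replicate. The pairs with ATAGAG went from 3 to 2 in windows of 50 bp on each side.

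The sign of the distance turned at 3 genes by choice of TSS. At Eif2s1, +148 bp became -118 bp with any transcript and -105 bp with RefSeq. At Copa, +148 bp became -155 bp with the facing start. At Hdlbp, -145 bp became +293 bp with the most upstream start, with the start most transcripts share and with the facing start. The RefSeq and facing starts were added after seeing the data. No paired analysis was made because the values come from no test. In each list the parental line enters only as the background at the listed summits. Tagged and parental replicates share numbers, and any pairing of them lies within the peak calls. Summits of 8 to 20 reads limit what a single list can show, and a site that is not listed may still be bound below the caller's threshold.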
